A study of Mus musculus with 6 samples.

Results

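Interferons are the antiviral cytokines of vertebrates. Type I interferons act through a receptor whose kinases activate STAT2, which joins IRF9 in a complex that binds the interferon-stimulated response element (ISRE), whereas interferon gamma acts through gamma-activated sites (GAS). The genes switched on this way degrade viral RNA, block translation and viral release, tag proteins with ISG15, and raise antigen presentation, and many keep a low tonic level in healthy tissue such as kidney. The genes described here are 35 such response genes, taken by symbol, of which 33 were measured among 18193 genes with a probe set of 1 gene symbol. Where a gene had several probe sets, the one with the highest mean over the 6 arrays was used. Ifi44 had no such probe set, and Isg15, the ubiquitin-like modifier itself, was covered by 1 probe set that the annotation shares with a further gene, so neither is reported.

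Total kidney RNA from 6 adult male mice aged 10 weeks was hybridised to Affymetrix arrays, 1 array per animal. The ICD group holds 3 mice, titled TG and described as heterozygous, that express the intracellular domain of megalin (called soluble in the label of replicate 1 alone), and the WT group holds 3 wild type littermates. Megalin, encoded by Lrp2, is the endocytic receptor of the proximal tubule, and the series asks whether its released tail affects that segment. Not given in the sources used here are the promoter that drives the domain, the cells that make it and the strain.

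Values are log2 signals from RMA, a method that corrects background, gives all arrays the same distribution and combines the probes of a probe set. Array medians lay between 6.62 and 6.66. The brightest Lrp2 probe set, 1452320_at, read 12.83 in both groups. A second, 1427133_s_at, read 12.25, 12.37 and 12.26 on the ICD arrays and 13.01, 12.97 and 12.13 on the WT arrays, so that the array labelled WT 3 lay below all ICD arrays there. Whether the probes match the part of Lrp2 used for the domain is not stated, so these probe sets are an incomplete check of genotype, and that array is called the array labelled WT 3 throughout. All 14 measured markers of the proximal tubule read 9.27 or more on the ICD arrays, WT 1 and WT 2, in keeping with kidney. On the array labelled WT 3, 7 of the 14 had their lowest value, among them Slc5a12 (4.12 against 9.27 to 10.47 on the other arrays), Slc6a19 (9.43 against 10.63 to 11.15), Slc22a8 (11.26 against 12.23 to 12.60), Gatm (10.93 against 12.01 to 12.51) and Slc5a2 (10.40 against 11.29 to 11.96), whereas Slc27a2 and Cyp2e1 were highest there. The 3' minus 5' control difference of Gapdh, a measure of RNA integrity, was 0.12 to 0.17 on ICD arrays and 0.15 to 0.18 on WT arrays. That of Actb was 0.87 to 0.96 on ICD arrays and 0.82 to 1.00 on WT arrays, lowest on WT 1 and highest on WT 2.

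No interferon response gene passed the test between genotypes (limma, Benjamini-Hochberg adjusted p under 0.05 over 45037 probe sets). The smallest adjusted p among the 33 was 0.725, and 0% of all genes passed. Of the 33 genes, 13 lay higher and 20 lower in ICD kidneys, where 43.9% of all genes lay higher. The median difference (ICD minus WT) was -0.027 on the log2 scale, against -0.012 over all genes. At an unadjusted limma p under 0.05 there were 3 members, where 3.94% of all genes reached it: Gbp2 and Cxcl9 higher (1.74% of all genes were) and Oasl1 lower (2.20% of all genes were). The groups did not overlap for 5 members (Gbp2, Psmb8 and Cxcl9 higher, Oasl1 and Zbp1 lower), against 9.10% of all genes. The 95% confidence interval had a median reach of 0.22 to either side, and for 31 of the 33 genes it lay wholly between -0.5 and 0.5. Leaving out WT 1 turned the count to 22 higher, and leaving out ICD 2 turned it to 20 higher; the median difference was then 0.050 and 0.023.

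**Figure D1:**
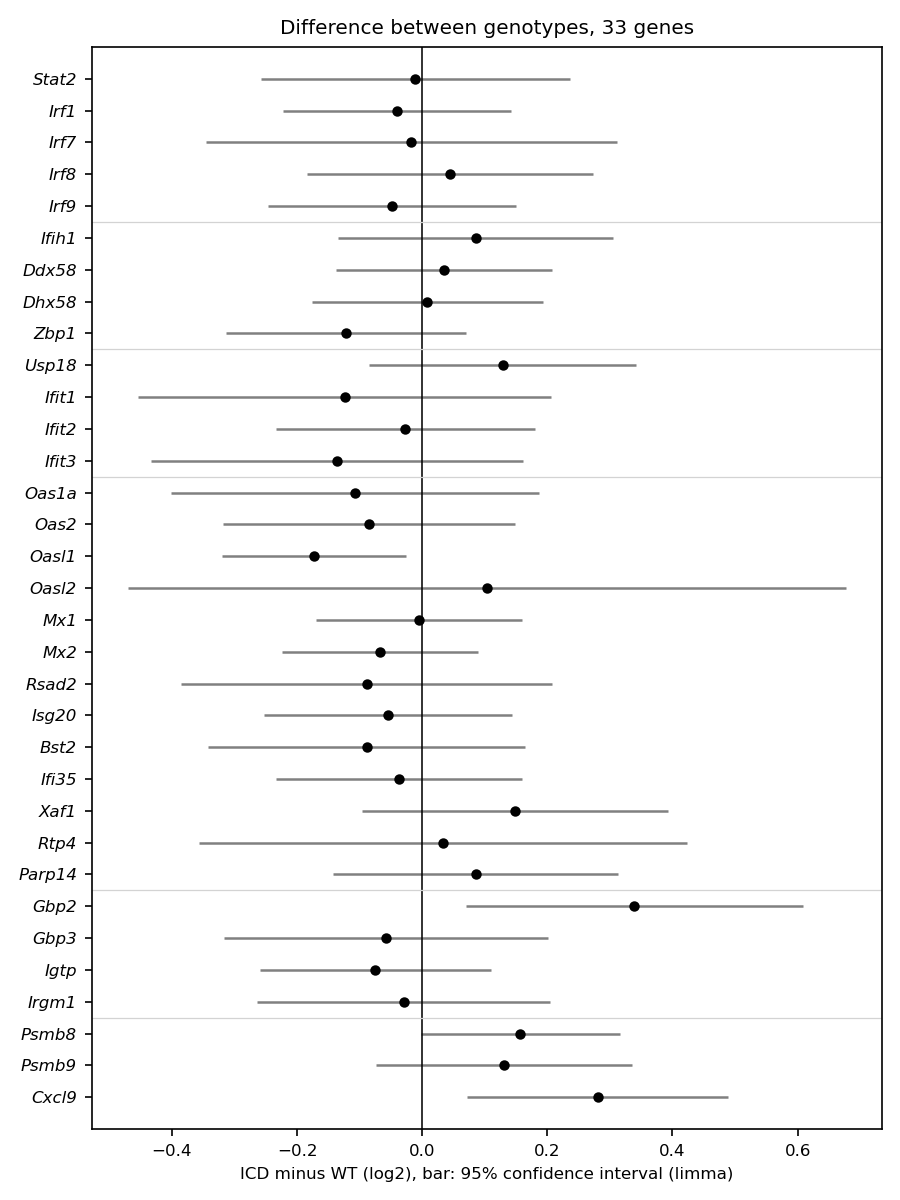
Difference between genotypes (ICD minus WT, log2, horizontal axis) for the 33 measured genes, in order of role, with 95% confidence intervals from limma (n = 3 and 3 animals). Gbp2 (0.34) and Cxcl9 (0.28) lie farthest to the right, and the other points sit between -0.17 and 0.16.

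None of the transcription factors of the response passed the test between genotypes, and all 5 were highest on the same array. Stat2 joins IRF9 in the complex that answers type I interferon. It read 6.83, 6.59 and 6.74 on ICD 1 to 3 and 6.93, 6.71 and 6.55 on WT 1, WT 2 and the array labelled WT 3. Its difference was -0.011 (95% confidence interval -0.26 to 0.24, limma adjusted p = 0.998). Irf9, the DNA-binding part of that complex, read 7.92, 8.07 and 7.90 on ICD arrays and 8.13, 8.01 and 7.89 on WT arrays, a difference of -0.048 (interval -0.25 to 0.15). For both genes the highest and the lowest of the 6 values lay on arrays labelled WT.

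Irf7 amplifies interferon production and is itself a response gene. It read 7.33, 7.20 and 7.29 on ICD arrays and 7.66, 7.09 and 7.12 on WT arrays. WT 1 alone stood apart, and the groups overlapped: the mean was 7.27 ± 0.065 (SD, n = 3) in ICD and 7.29 ± 0.32 in WT kidneys. Without WT 1 the difference of -0.018 became 0.17 (limma adjusted p = 0.721). Irf1, an early target of interferon gamma, differed by -0.040 and Irf8, a factor of myeloid cells, by 0.045. All 5 transcription factors had their highest value of the 6 arrays on WT 1, and 4 of them, all but Irf7, their lowest on the array labelled WT 3.

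This ordering of arrays was shared by many other members. Of the 33 genes, 15 (45.5%) had their highest value on WT 1, where 15.7% of all genes did. A further 9 were highest on ICD 3 (27.3%, against 12.4% of all genes) and 0 on ICD 1 (against 11.8%). The lowest value fell on the array labelled WT 3 for 16 members (48.5%, against 17.1% of all genes) and on ICD 2 for 8 (24.2%, against 18.5%). These shares are a description, since genes of 1 response are not independent of each other. The deviation of each gene from its own mean over the 6 arrays had a median, over members, of 0.082 on WT 1 and -0.10 on the array labelled WT 3. Both arrays are labelled WT, and the Lrp2 values above leave the genotype of the second unsettled.

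**Figure D2:**
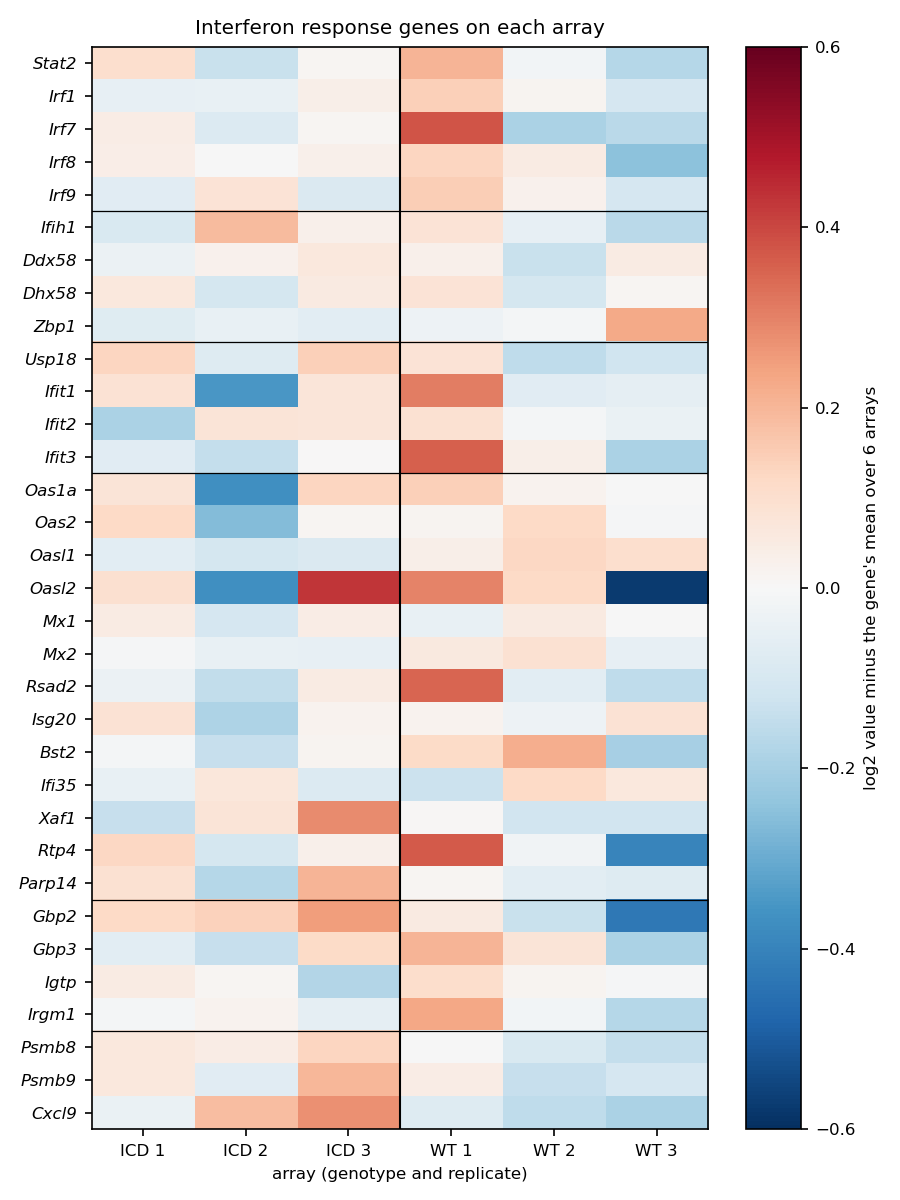
Each cell shows a gene's log2 value on an array minus that gene's mean over the 6 arrays (colour scale in log2), for the 33 genes in rows grouped by role and the 6 arrays in columns. Red cells gather on WT 1, where 15 of the 33 genes are at their highest, and blue cells on the array labelled WT 3 and on ICD 2, where 16 and 8 are at their lowest.

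**Figure D3:**
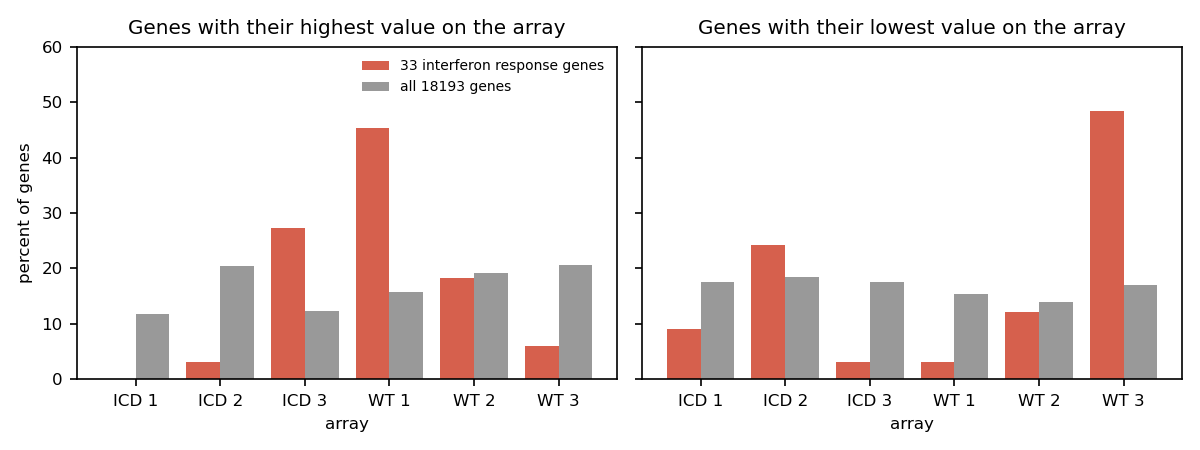
Percent of genes whose highest (left) or lowest (right) value of the 6 arrays fell on each array, for the 33 interferon response genes and for all 18193 genes. The members exceed the share of all genes on WT 1 (45.5% against 15.7%) for highest values and on the array labelled WT 3 (48.5% against 17.1%) for lowest values.

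None of the cytosolic RNA sensors passed the test. Ifih1 (MDA5) differed by 0.086, Ddx58 (RIG-I) by 0.035 and Dhx58 (LGP2), which modulates both, by 0.0084. Ddx58 stayed between 8.34 and 8.54 on all 6 arrays, whereas Ifih1 ranged from 8.14 to 8.49. Zbp1, a sensor of Z-form nucleic acid, read 6.72, 6.74 and 6.72 on ICD arrays and 6.76, 6.78 and 7.02 on WT arrays. The groups did not overlap, but WT 1 and WT 2 lay close to the ICD values, and the difference of -0.12 (interval -0.31 to 0.070, limma adjusted p = 0.938) was -0.038 without the array labelled WT 3. Its second probe set differed by 0.0047.

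Usp18 removes ISG15 from proteins and restrains the type I receptor. It read 6.41, 6.20 and 6.42 on ICD arrays and 6.36, 6.13 and 6.16 on WT arrays, a difference of 0.13 (interval -0.084 to 0.34, limma adjusted p = 0.945), and the groups overlapped. The IFIT proteins bind foreign RNA ends and block translation. Ifit3 read 8.72, 8.64 and 8.79 on ICD arrays and 9.15, 8.82 and 8.59 on WT arrays. Ifit1 read 6.71, 6.28 and 6.70 on ICD arrays and 6.93, 6.56 and 6.57 on WT arrays. Both were highest on WT 1, as was Ifit2, whose difference was -0.027. The differences of Ifit3 (-0.14, interval -0.43 to 0.16) and Ifit1 (-0.12, interval -0.45 to 0.21) shrank to 0.0098 and -0.00068 without WT 1, and that of Ifit3 was -0.27 without the array labelled WT 3.

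Among antiviral effectors, Rsad2 (viperin), an enzyme that makes a chain terminator for viral polymerases, followed the same order. Its brightest probe set read 9.35, 9.23 and 9.43 on ICD arrays and 9.73, 9.32 and 9.23 on WT arrays, a difference of -0.089 (interval -0.38 to 0.21). All 3 of its probe sets were highest on WT 1. Rtp4, a chaperone of membrane receptors that interferon induces, read 7.94, 7.72 and 7.85 on ICD arrays and 8.19, 7.80 and 7.43 on WT arrays. Its WT values lay on both sides of the ICD values, and the difference of 0.033 (interval -0.36 to 0.42) was 0.23 without WT 1 and -0.16 without the array labelled WT 3.

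The OAS enzymes make oligoadenylates that switch on an RNA-degrading nuclease, whereas the mouse OAS-like protein Oasl1 lacks that activity. Oas1a read 8.36, 7.91 and 8.41 on ICD arrays and 8.42, 8.30 and 8.28 on WT arrays, so that ICD 2 alone was low. The difference of -0.11 (interval -0.40 to 0.19) became 0.049 without ICD 2. Oasl2 had the widest range of the 33 genes, 1.00: it read 6.83, 6.37 and 7.17 on ICD arrays and 7.04, 6.86 and 6.17 on WT arrays, with a difference of 0.10 (interval -0.47 to 0.68). This became 0.31 when ICD 2 was left out and -0.16 when the array labelled WT 3 was. Low values thus occurred in both groups.

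Oasl1, which represses translation of Irf7 mRNA, was the member with the most negative difference. It read 6.90, 6.86 and 6.88 on ICD arrays and 7.00, 7.09 and 7.07 on WT arrays. Every ICD value lay below every WT value, with means of 6.88 ± 0.021 (SD, n = 3) and 7.05 ± 0.048. The difference of -0.17 (interval -0.32 to -0.026) had an unadjusted limma p of 0.0265 and an adjusted p of 0.800, so it did not pass. It lay between -0.20 and -0.15 when each array was left out in turn. Groups that did not overlap with ICD lower made up 5.44% of all genes.

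The remaining effectors differed by -0.089 to 0.15. Bst2 (tetherin), which holds budding virions at the cell surface, differed by -0.089, Isg20, an exonuclease, by -0.054, and Parp14, an ADP-ribosyltransferase, by 0.086. Mx2, a dynamin-like GTPase, stayed between 6.47 and 6.61 on all arrays. Mx1 stayed between 3.99 and 4.14, near the lowest value of the table (3.11), and many laboratory strains are known to carry a defective Mx1. The file holds no detection calls, so it is not known whether such a value lies above background.

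**Figure D4:**
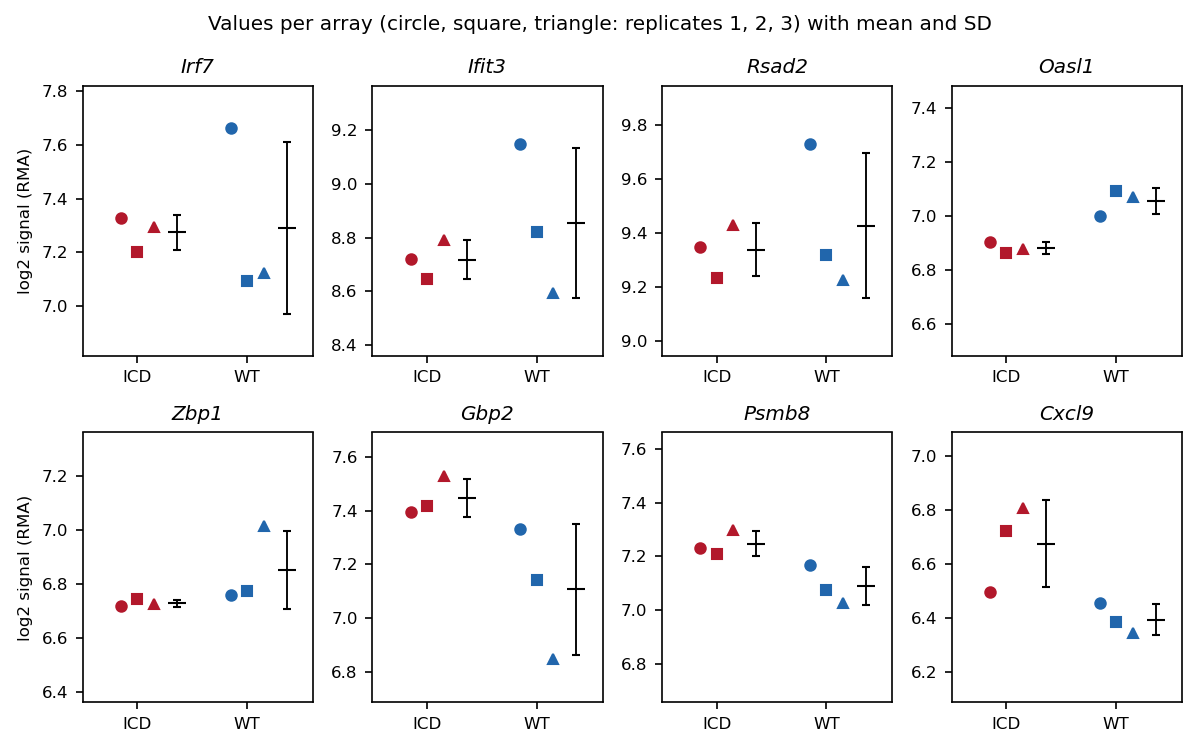
Log2 RMA signal of 8 members on each array, with circles, squares and triangles for replicates 1, 2 and 3 and the mean with SD beside each group (n = 3), every panel spanning 1 log2 unit. WT 1 stands above the other arrays for Irf7, Ifit3 and Rsad2, whereas for Oasl1, Zbp1, Gbp2, Psmb8 and Cxcl9 the groups do not overlap.

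Gbp2, Cxcl9 and Psmb8, which interferon gamma is known to induce strongly, had the 3 highest differences of the 33 genes, and none passed the test. Gbp2, a guanylate-binding GTPase that attacks the vacuoles of intracellular pathogens, read 7.40, 7.42 and 7.53 on ICD arrays and 7.33, 7.14 and 6.85 on WT arrays. The ICD values lay above all WT values, with ICD 1 and WT 1 the nearest pair. The means were 7.45 ± 0.071 (SD, n = 3) and 7.11 ± 0.24, and the difference of 0.34 (interval 0.069 to 0.61) had an unadjusted limma p of 0.0197 and an adjusted p of 0.756. It was 0.45 without WT 1 and 0.21 without the array labelled WT 3, which held the lowest value. The second Gbp2 probe set differed by 0.28 with overlapping groups.

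Cxcl9, a chemokine that draws T cells and natural killer cells, read 6.49, 6.72 and 6.81 on ICD arrays and 6.45, 6.38 and 6.34 on WT arrays. The groups did not overlap, although ICD 1 lay close to WT 1. The difference of 0.28 (interval 0.071 to 0.49) had an unadjusted limma p of 0.0146 and an adjusted p of 0.725. Leaving out single arrays gave 0.21 to 0.37. Its second, dimmer probe set differed by 0.031.

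Psmb8 and Psmb9 are catalytic subunits of the immunoproteasome, which cuts peptides for presentation on MHC class I. Psmb8 read 7.23, 7.21 and 7.30 on ICD arrays and 7.17, 7.08 and 7.03 on WT arrays, without overlap, a difference of 0.16 (interval -0.0025 to 0.32, limma adjusted p = 0.854). Its dim second probe set differed by -0.034. Psmb9 read 7.36, 7.23 and 7.50 on ICD arrays and 7.34, 7.16 and 7.20 on WT arrays, where the groups overlapped (difference 0.13, interval -0.074 to 0.34). Psmb8, Psmb9, Cxcl9 and Gbp2 were all highest on ICD 3. Genes whose groups did not overlap with ICD higher made up 3.66% of all genes, and 3 of the 33 members did so. The other 3 interferon gamma GTPases among the members had negative differences: Gbp3, its neighbour, differed by -0.058, and Igtp and Irgm1, which guard against vacuolar pathogens, by -0.075 and -0.030, with all 3 highest on WT 1. Among related GTPases that are no members, named after their values were seen, Gbp6 and Iigp1 differed by 0.21 each and Ifi47 by 0.084. Gbp7 and Irgm2 differed by -0.027 and -0.091. Further chemokines and antigen presentation genes were also named after their values were seen. The chemokines Cxcl10, Cxcl11 and Ccl5 differed by -0.077, -0.0050 and 0.058. Psmb10, Psme1, Tap1, Tap2 and Tapbp differed by 0.012, 0.034, 0.0061, 0.00032 and 0.028. None of these genes passed the test.

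Upstream of 27 of the 35 listed genes, Isg15 and Ifi44 among them although neither was measured, the RefSeq table of GRCm38.p6 gave start sites, and the 250 bases before each start were searched on both strands for an ISRE core (GAAANNGAAA) and a GAS core (TTCNNNGAA), with overlapping matches counted. The ISRE core was found for 11 of the 27 genes, Isg15 included (40.7%), against 3.46% of all 27025 genes in the table, and the GAS core for 8 (29.6%), against 8.13%. Ifit3 and Rsad2, of the genes highest on WT 1, and Gbp2, Psmb8 and Cxcl9, of those higher in ICD without overlap, were chosen as examples. The 5 sequences shown do not stand for every gene of either pattern. They run 5′ to 3′ on the gene's strand and end at the base before the start, with matches in capitals.
Ifit3 (chr19:34583279-34583528, plus strand): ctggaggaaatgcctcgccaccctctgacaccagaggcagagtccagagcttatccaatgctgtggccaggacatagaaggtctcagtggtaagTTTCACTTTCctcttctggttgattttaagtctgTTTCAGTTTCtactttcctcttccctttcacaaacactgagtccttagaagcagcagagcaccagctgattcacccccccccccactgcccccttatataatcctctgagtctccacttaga
Rsad2 (chr12:26456453-26456702, minus strand): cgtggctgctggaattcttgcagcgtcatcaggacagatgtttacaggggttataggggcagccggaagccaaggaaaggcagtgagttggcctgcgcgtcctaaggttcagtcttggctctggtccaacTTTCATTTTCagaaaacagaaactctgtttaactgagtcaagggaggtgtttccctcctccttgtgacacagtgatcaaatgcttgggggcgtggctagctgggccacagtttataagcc
Gbp2 (chr3:142620413-142620662, plus strand): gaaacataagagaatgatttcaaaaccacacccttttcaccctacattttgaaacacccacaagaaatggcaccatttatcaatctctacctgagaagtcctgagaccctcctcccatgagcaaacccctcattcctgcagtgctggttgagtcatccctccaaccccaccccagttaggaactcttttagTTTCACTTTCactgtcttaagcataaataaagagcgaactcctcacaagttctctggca
Psmb8 (chr17:34197945-34198194, plus strand): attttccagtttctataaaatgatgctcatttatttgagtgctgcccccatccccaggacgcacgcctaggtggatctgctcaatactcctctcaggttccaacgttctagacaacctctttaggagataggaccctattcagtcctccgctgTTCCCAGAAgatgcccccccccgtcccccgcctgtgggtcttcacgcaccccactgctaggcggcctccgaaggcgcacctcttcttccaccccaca
Cxcl9 (chr5:92328080-92328329, minus strand): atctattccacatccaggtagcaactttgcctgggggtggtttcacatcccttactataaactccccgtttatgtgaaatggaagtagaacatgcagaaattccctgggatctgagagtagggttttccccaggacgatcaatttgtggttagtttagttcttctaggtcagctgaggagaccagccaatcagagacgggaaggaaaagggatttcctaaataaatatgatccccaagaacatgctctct
Ifit3 holds 2 ISRE cores, Rsad2 and Gbp2 hold 1 each, Psmb8 holds a GAS core, and Cxcl9 holds neither in this window. The ISRE core was thus present both in genes highest on WT 1 and in Gbp2. Of the other genes highest on WT 1, Stat2, Ifit1, Oas1a, Gbp3, Igtp and Irgm1 also held an ISRE core. Irf1, Irf7, Irf8, Irf9 and Ifit2 held none, and Dhx58 and Rtp4 were not searched. Of the members lower in ICD without overlap, Oasl1 held neither core and Zbp1 was not searched. A match is a description of the letters and not a measured site.

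No gene of the rest of the pathway passed the test. Of 105 further pathway genes measured, 0 passed the limma test. At an unadjusted limma p under 0.05 there were 4 (Ifng, Nlrc5, Gbp6 and Ifitm1), where 3.94% of all genes reached it. Of the 105, 54 lay higher and 51 lower, and the median difference was 0.0011. The groups did not overlap with ICD higher for 1 (Nlrc5), against 3.66% of all genes. They did not overlap with ICD lower for 5 (Ifna1, Ifng, Tlr3, Mavs and Dtx3l), against 5.44% of all genes. Among 10 interferon ligands, Ifnb1 read 6.45, 6.36 and 6.22 on ICD arrays and 6.72, 6.42 and 6.23 on WT arrays, a difference of -0.12. Ifng read 4.18, 4.19 and 4.05 on ICD arrays and 4.22, 4.39 and 4.49 on WT arrays, a difference of -0.23 (limma adjusted p = 0.811) opposite in sign to Gbp2 and Cxcl9, and this probe set is dim. Of the 9 receptor chains and kinases, 3 lay higher and 6 lower: Ifnar1, a chain of the type I receptor, differed by 0.027, Ifnar2, its partner, by -0.19, and the kinase Jak1 by 0.078. The 15 genes of sensing and induction had a median of 0.0011, with Aim2, a DNA sensor, at 0.12 and Tlr3, a receptor for endosomal RNA, at -0.14.

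Of 12 regulators, Nlrc5, the transactivator of MHC class I genes and of Psmb9, read 6.03, 5.70 and 5.79 on ICD arrays and 5.63, 5.69 and 5.26 on WT arrays, without overlap, a difference of 0.32 (interval 0.017 to 0.62, limma adjusted p = 0.840). Ciita, its class II counterpart, differed by -0.15. Of 59 further interferon-induced genes, 32 lay higher and 27 lower. The GTPase Gbp6 differed by 0.21 (limma adjusted p = 0.851), and Ifitm1, which blocks viral entry, by -0.26 (adjusted p = 0.837). Of these 59 genes, 17 were highest on ICD 3 and 14 on WT 1, against 12.4% and 15.7% of all genes. On the array labelled WT 3, 24 of the 59 were lowest, against 17.1% of all genes. Ly6e, chosen after its values were seen, read 11.40, 11.52 and 11.96 on ICD arrays and 12.25, 11.73 and 11.25 on WT arrays, the same order of WT arrays as Rsad2 and Ifit3. Its dimmer probe set 1439773_at stayed between 7.35 and 7.43 and was lowest on ICD 3.

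Markers of other cells moved with some of these groups of arrays. In whole kidney, fewer cells of a type and less RNA per cell cannot be told apart. Endothelial markers had a mean deviation from their own 6-array means (the score below) of -0.044, 0.015 and 0.17 on ICD arrays and 0.25, -0.063 and -0.32 on WT arrays, and 10 of 12 were highest on WT 1. The interferon response genes scored 0.012, -0.068 and 0.064 on ICD arrays and 0.12, -0.014 and -0.11 on WT arrays. Both sets thus had their highest score on WT 1 and their lowest on the array labelled WT 3. The 14 proximal tubule markers scored 0.22 on WT 1 and -0.68 on the array labelled WT 3, and Slc5a12, a lactate transporter, deviated most of the 14 on both arrays. Their median deviation was lowest on the array labelled WT 3 (-0.10) and highest on ICD 2 (0.11, against 0.083 on WT 1). Myeloid markers scored -0.014, -0.16 and 0.18 on ICD arrays and 0.11, 0.0028 and -0.13 on WT arrays, with ICD 3 highest and ICD 2 lowest. Their part in the result was not tested.

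Beside Gbp2, Psmb8 and Cxcl9, higher on ICD arrays, 8 of 8 podocyte markers lay higher in ICD kidneys (scores 0.099 to 0.24 against -0.30 to -0.017). For 6 of the 8 the groups did not overlap with ICD higher, against 3.66% of all genes. Of the endothelial markers 11 of 12 lay higher, but the groups overlapped for all 12. The highest and the lowest endothelial score lay on arrays labelled WT (0.25 on WT 1 and -0.32 on the array labelled WT 3). Among 14 lymphoid markers 5 lay higher and 9 lower. Nkg7, of natural killer and cytotoxic T cells, read 5.98, 5.98 and 6.17 on ICD arrays and 5.89, 5.77 and 5.81 on WT arrays (difference 0.22, limma adjusted p = 0.766), whereas Gzma and Gzmb, of the same cells, differed by -0.11 and -0.18. Ptprc, the common leukocyte antigen, differed by 0.15 and Adgre1, a macrophage marker, by -0.20, both with overlapping groups. The 5 measured markers of plasmacytoid dendritic cells, the main producers of type I interferon, differed by -0.089 to 0.18, and 1 of them, Bst2, is also a member. Neutrophil markers lay higher for 1 of 5 (scores -0.075 to 0.011 against 0.0087 to 0.063), and blood markers for 1 of 3, where Alas2 of red cell precursors differed by -0.39. Their part in the differences of Gbp2, Psmb8 and Cxcl9 was not tested.

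**Figure D5:**
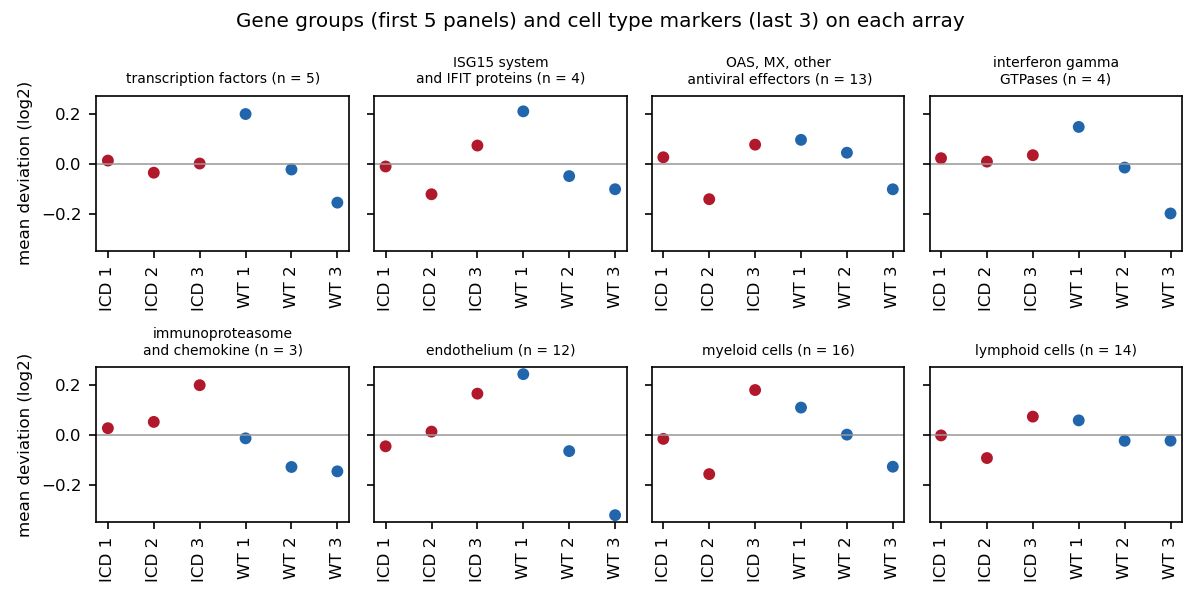
Mean deviation (log2) of each gene group from its genes' own means over the 6 arrays, for 5 groups of interferon response genes and 3 lists of cell type markers, with ICD arrays in red and WT arrays in blue. Transcription factors, IFIT genes and endothelial markers peak on WT 1 (0.20, 0.21 and 0.25), and the immunoproteasome and chemokine group on ICD 3 (0.20).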

How the data were processed

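Kidney RNA of 3 ICD and 3 WT mice was measured, 1 array each. The deposited values are log2 signals made by RMA, per the submitters' processing notes; not given in the sources used here are the RMA version, the chip definition and any filter. RMA's quantile step would remove a shift shared by most transcripts, and RMA values compress differences of dim probe sets. The 64 control rows were left out, leaving 45037 probe sets: 34945 with 1 gene symbol, 932 with several and 9160 with none. No 2 arrays held identical values. The number of arrays limits the precision.

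The 35 members, the gene lists and the tests were chosen with earlier results of these data known. The test of ICD against WT used limma 3.58.1 under R 4.3.3 (linear model and default empirical Bayes, 2-sided, Benjamini-Hochberg over 45037 probe sets). The code was checked on simulated data with independent noise. That check required recovery only of differences larger than any among the members, so it does not cover smaller ones. Values on every array are given for members without overlap, with unadjusted p under 0.05, with the 8 largest ranges over the arrays, and for Stat2, Irf9, Irf7, Usp18, Gbp2, Psmb8 and Cxcl9. Of 218 entries in the other lists, 36 had no probe set with 1 symbol. An exact permutation test of 3 against 3 cannot give a 2-sided p below 0.1 and was not used. Promoter sequences are from RefSeq (GRCm38.p6). The alternatives were other priors, array weights, normalizations, a filter on dim probe sets, other probe sets of a gene, a replicate block, and leaving out each array.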

Additional observations from a re-analysis of the deposited data

How the results depend on the processing

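No member passed the adjusted threshold under any alternative run (limma). Leaving out each array in turn gave 10 to 22 members higher in ICD and a median difference over the members of -0.098 to 0.050. It gave 0 to 4 members with unadjusted limma p under 0.05 (0 without ICD 3), where 4.7% to 7.2% of all probe sets had it. Over the whole table, 0 to 1 probe sets were called. With a trended and robust prior 1 probe set was called, and it was no member. With array weights the difference of Stat2 was 0.012, and with the most variable probe set of a gene that of Psmb8 was -0.034. Leaving out arrays also turned the sign of some members, with ranges of -0.20 to 0.019 for Ifit1, -0.27 to 0.0098 for Ifit3, -0.12 to 0.17 for Irf7, -0.11 to 0.013 for Irf9, -0.20 to 0.049 for Oas1a, -0.16 to 0.31 for Oasl2, -0.19 to 0.064 for Rsad2, -0.16 to 0.23 for Rtp4 and -0.10 to 0.089 for Stat2. The cause was not tested. Gbp2, Cxcl9, Usp18, Oasl1 and Zbp1 kept their sign in every alternative run. Limma with the replicate block gave 13 members higher. There 2 members had an unadjusted p under 0.05 (Gbp2 and Cxcl9), as did 5.9% of all probe sets. Whether the numbers pair the arrays is not known. Deviations from the group mean correlated over genes at -0.019, -0.028 and -0.072 for same-numbered arrays. They correlated at 0.13 for ICD 3 with WT 1, 0.11 for ICD 2 with the array labelled WT 3 and 0.088 for ICD 1 with WT 2. The remaining pairs were negative. Deviations of 3 arrays from their mean are not independent, so these values cannot decide whether arrays are paired. Alternatives added after the data were seen gave 15 to 16 of 33 members highest on WT 1 and 13 to 17 lowest on the array labelled WT 3. With bright probe sets only, which kept 27 members, these counts were 13 and 14. With 3 arrays per group, differences smaller than the median interval reach of 0.22 could not be told from 0 for the typical member.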

Other observations

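Xaf1, an interferon-induced factor that promotes cell death, has 2 probe sets that behaved differently. The probe set with the higher mean, 1443698_at, ranged from 7.26 to 7.68. The other, 1443621_at, read 7.40, 6.20 and 5.82 on ICD 1 to 3 and 7.47, 7.40 and 6.24 on WT 1, WT 2 and the array labelled WT 3. Values thus lay between 7.40 and 7.47 on 3 arrays and at 6.24 or lower on the other 3, with both levels in both labelled groups, and the difference of -0.56 had a limma adjusted p of 0.950. Trim34a, an interferon-induced ubiquitin ligase chosen after its values were seen, was low on the arrays where this Xaf1 probe set was high. Its probe set 1424857_a_at read 6.19, 7.30 and 8.18 on ICD arrays and 6.19, 6.28 and 7.65 on WT arrays, whereas its other probe set, 1426093_at, read 5.88, 5.63 and 5.31 on ICD arrays and 5.75, 6.18 and 5.20 on WT arrays.

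Of the 13 members with more than 1 probe set, 9 had the same sign at each. Dhx58, Zbp1, Xaf1 and Psmb8 did not. The spread between animals was larger among the arrays labelled WT than among ICD arrays for 20 of 33 members, against 52.2% of all genes.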
